A study of Mus musculus with 8 samples.

Results

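The histone mark H3K27ac was examined at 10 genes of the ATF4-CHOP arm of the unfolded protein response, in mouse primary hepatocytes (MPH) exposed to acute endoplasmic reticulum stress (ERS). The genes were taken by name as Atf4, Ddit3 (which encodes CHOP), Atf3, Atf5, Trib3, Chac1, Ppp1r15a, Sesn2, Nupr1 and Ddit4. Of the 10 genes, 9 had a transcription start site (TSS) in an H3K27ac region, among 12261 genes with a TSS in any region. MPH came from adult male C57Bl6 WT mice (C57BL/6J aged 10 weeks in the methods) and were kept for 4 h with either 1 µM thapsigargin or the vehicle, 0.04% DMSO, without serum. Each treatment gave 3 H3K27ac ChIP-seq libraries from independent preparations and 1 input library, 8 in all. Thapsigargin blocks the calcium pump of the endoplasmic reticulum, so that calcium stores empty and proteins fold poorly. It is a strong chemical trigger in cultured cells and only stands for the stress a liver meets in vivo.

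The values that could be used were the positions of 32196 regions on mm10 in 3 lists. The list called UP held 5508 regions in which thapsigargin raised H3K27ac, the list called DOWN held 3376 in which it lowered the mark, and 23312 were listed as unchanged. H3K27ac is an acetylation of histone H3 found at active promoters and enhancers. The lists give no read count, signal or p-value per library, so the depth is unknown, a class holds for all 3 pairs of libraries together, and no spread between replicates or size of change can be given for a gene. Unchanged means that the authors' test did not pass its threshold of 0.05 on the false discovery rate, which is not evidence of equal signal. Peaks past that threshold in which neither direction prevailed were placed in no list, and bins at background level were dropped before the test. A stretch without a region thus held either no peak or a peak left out in the authors' processing, and the lists cannot tell these apart. As a check on the cell type, the TSSs of 5 of 5 hepatocyte markers (Alb, Krt18, Ttr, Apoa1 and Hnf4a) lay in regions, against 0 of 3 for stellate cells, 0 of 3 for endothelial cells, 1 of 4 for Kupffer cells (Cd68) and 1 of 3 for cholangiocytes (Sox9, in an UP region). Of the 5 hepatocyte markers, Krt18, Apoa1 and Hnf4a lay in DOWN regions, or 60% beside 8.91% of the 12261 genes. The regions of all 5 were wide, and among regions at a TSS of 5163 bp or more 30.2% were DOWN. Alb and Ttr lay in unchanged regions. The part of non-hepatocytes in the regions was not tested.

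When unfolded proteins accumulate, the kinase PERK phosphorylates eIF2α, which slows translation in general while the mRNA of the transcription factor ATF4 is translated more. ATF4 pairs with other basic leucine zipper (bZIP) proteins, among them C/EBP members, and binds composite C/EBP-ATF response elements (CARE) at genes of amino acid supply, redox balance and stress. CHOP, itself a target of ATF4, joins it at many of these genes, and prolonged activity of the pair is associated with cell death.

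Of the 9 genes with a region at a TSS, 6 lay in UP regions, 3 in unchanged regions and 0 in DOWN regions. The 6 were Ddit3, Atf3, Trib3, Chac1, Ppp1r15a and Sesn2, and the 3 were Atf4, Atf5 and Nupr1. As a share, 66.7% of the 9 had an UP region at a TSS, against 21.4% of the 12261 genes. Unchanged regions held 33.3% of the 9 against 73.7% of all, and with DOWN regions at 8.91% of all genes a count of 0 among 9 is near the background. Ddit4 had no region at its TSS, as had 55.3% of 21923 protein-coding genes. These counts describe a list whose members were known to be stress genes, and no test was made on them.

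**Figure D1:**
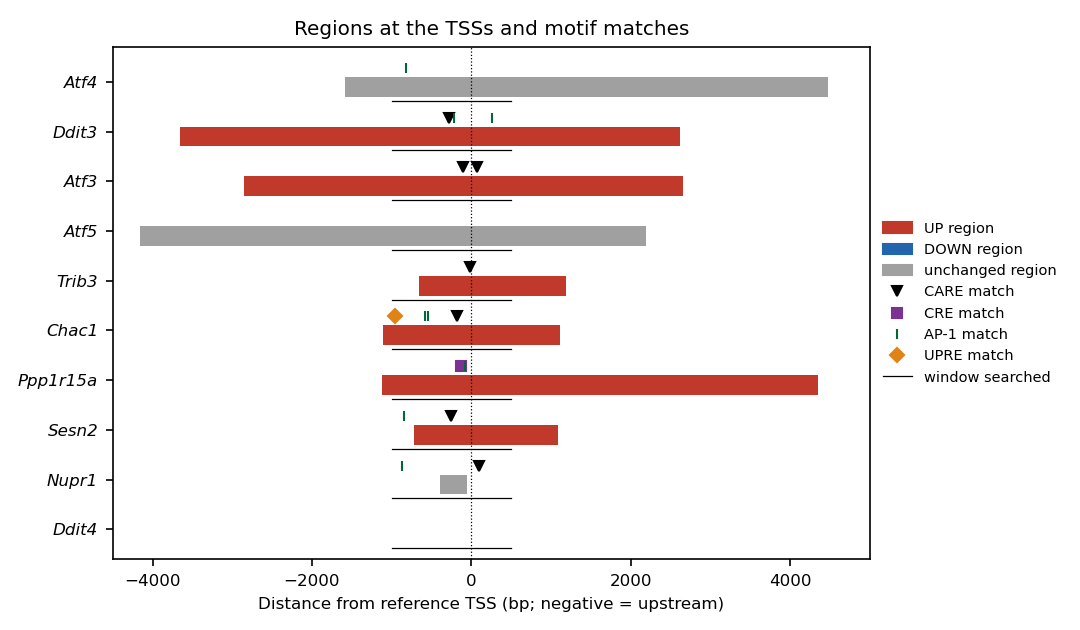
Regions at the TSSs of the 10 genes, drawn by distance from the reference TSS in bp, with negative values upstream, in red for UP and grey for unchanged (no DOWN region lay there). Markers above each bar are motif matches within the thin line, 1000 bp before to 500 bp after the TSS. The CARE matches of Ddit3, Atf3, Trib3, Chac1 and Sesn2 lie inside UP regions, and that of Nupr1 lies outside its narrow unchanged region.

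The DNA letters at these promoters differed between the genes. The window from 1000 bp before to 500 bp after the reference TSS was searched on both strands of mm10 for CARE, written TGATGNAA. The motif occurred in 6 of the 10 genes, namely Ddit3, Atf3, Trib3, Chac1, Sesn2 and Nupr1, with 7 matches in all since Atf3 had a pair, and in 13.8% of the 12261 genes. The 10 were chosen as genes of the ATF4-CHOP arm, so a count above that share is no independent result. They also include Ddit4, which had no region at its TSS, whereas all of the 12261 had one. The longer form TGATGCAAT, which contains CARE, occurred in Ddit3 and Nupr1 and in 0.644% of genes. Ppp1r15a, which had no CARE, was the only one of the 10 with the cAMP response element (CRE) TGACGTCA, found in 5.28% of genes. The 8 matches are printed with their surroundings, 30 bases each on the strand of the gene, because they set the 5 CARE genes in UP regions beside Nupr1 in an unchanged one. Capitals mark the match, which for Ddit3 and Nupr1 is the longer form with 1 more base.
Ddit3, 282 bp before the TSS, chr10:127290481-127290510, plus strand: gttgccaaacATTGCATCAtccccgccccc
Atf3, 103 bp before the TSS, chr1:191183425-191183454, minus strand: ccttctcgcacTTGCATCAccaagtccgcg
Atf3, 67 bp after the TSS, chr1:191183255-191183284, minus strand: tttaaaaggggTGATGCAAcgcgctcccag
Chac1, 180 bp before the TSS, chr2:119351038-119351067, plus strand: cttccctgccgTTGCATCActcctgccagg
Sesn2, 259 bp before the TSS, chr4:132510742-132510771, minus strand: gtgaagtcccgTTTCATCAcgcagccctaa
Trib3, 14 bp before the TSS, chr2:152344028-152344057, minus strand: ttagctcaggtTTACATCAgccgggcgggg
Nupr1, 96 bp after the TSS, chr7:126625562-126625591, minus strand: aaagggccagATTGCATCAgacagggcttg
Ppp1r15a, 134 bp before the TSS, chr7:45526262-45526291, minus strand: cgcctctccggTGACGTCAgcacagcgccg
In 6 of the 7 CARE matches the letters on the gene's strand were the reverse complement of TGATGCAA or of its variants with another base at N, and the second match of Atf3, after its TSS, was in the forward sense. A match gives letters only and says nothing of whether ATF4 or CHOP was bound.

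Other motifs were searched in the same windows. The AP-1 motif TGANTCA, which shares no base with the matches printed, occurred in 6 of the 10 genes (Atf4, Ddit3, Chac1, Ppp1r15a, Sesn2 and Nupr1) and in 26.9% of all genes. The element TGACGTGG, known from targets of XBP1 and ATF6 and called UPRE here, occurred in Chac1 at 952 bp before the TSS and in 2.62% of genes. The palindromic C/EBP motif TTGCGCAA occurred in 0 of the 10 and in 0.791% of genes. The ER stress element, CCAAT and CCACG with 9 bases between them, occurred in 0 of the 10 and in 0.212% of genes.

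The 250 bases before the TSS are shown for Atf3 and Chac1, since in these genes CARE lies within this stretch whether the GENCODE or the RefSeq start is used, and an UP region covers all of it. In Trib3, RefSeq places the start upstream of the CARE match, and its stretch is not shown. Both are rich in G and C, with 64.8% for Atf3 and 61.6% for Chac1. Capitals mark CARE.
Atf3 promoter, chr1:191183341-191183590, minus strand: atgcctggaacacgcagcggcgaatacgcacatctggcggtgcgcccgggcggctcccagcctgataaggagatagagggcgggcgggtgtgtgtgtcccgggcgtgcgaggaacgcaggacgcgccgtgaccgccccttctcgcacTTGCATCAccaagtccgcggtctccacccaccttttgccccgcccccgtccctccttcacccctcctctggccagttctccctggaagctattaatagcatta
Chac1 promoter, chr2:119350979-119351228, plus strand: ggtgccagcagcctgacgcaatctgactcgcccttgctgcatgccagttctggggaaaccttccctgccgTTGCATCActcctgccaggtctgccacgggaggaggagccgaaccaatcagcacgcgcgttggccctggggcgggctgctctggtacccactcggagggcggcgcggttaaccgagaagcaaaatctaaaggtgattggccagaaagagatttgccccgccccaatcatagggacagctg

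Atf4 encodes the transcription factor that is translated more when eIF2α is phosphorylated, and its mark was listed as unchanged. The region at its TSSs, chr15:80253603-80259654, was 6052 bp wide, held all 3 annotated TSSs and covered the whole gene of 2358 bp. It began 1581 bp before the reference TSS and ended 4470 bp after it. It stood at the 96th percentile of width among unchanged regions at a TSS, whose median was 1530 bp. Within 50 kb of the Atf4 TSSs there were 5 regions and all were unchanged. The nearest UP region was 519 kb away and the nearest DOWN region 524 kb away. Among the 12261 genes, 31.4% had neither an UP nor a DOWN region within 50 kb. The study's ChIP-qPCR primers for Atf4, taggacgcgaggacaagctg and gctcgggttgcacaagatgg, matched mm10 at chr15:80256004-80256079 and gave an amplicon of 76 bp that begins 820 bp after the TSS and lies inside this unchanged region.

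Ddit3 encodes CHOP, the bZIP partner of ATF4, and had the widest UP region of the 10 genes. The region, chr10:127287113-127293389, was 6277 bp wide, at the 90.7th percentile of UP regions at a TSS, whose median was 2136 bp. It reached 3661 bp upstream and 2615 bp downstream of the reference TSS, against medians of 880 and 1148 bp for UP regions. It also held TSSs of Mbd6, Gm4189 and Gm20492, so the class of the region cannot be assigned to Ddit3 alone. A second UP region of 3001 bp began 19.1 kb downstream, at a TSS of Mars, a methionyl-tRNA synthetase gene. That region held another match to the longer CARE, 20.9 kb from the Ddit3 TSS. Of all 5508 UP regions, 4.65% held such a match. The only other region within 50 kb was unchanged, and the nearest DOWN region was 63.9 kb away. The ChIP-qPCR primers for Ddit3, gacccagtccagggcaatca and gcctcctgcctctagctgtc, gave an amplicon of 90 bp at chr10:127289832-127289921, inside the UP region at the TSS.

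Atf3 encodes a stress-induced bZIP factor that mostly represses transcription, and it had the most UP regions around it. The region at 2 of its 3 TSSs, chr1:191180684-191186199, was UP and 5516 bp wide, at the 88.6th percentile of its class. The third TSS, far upstream, was in no region but lay 1156 bp from an UP region of 914 bp on one side and 3760 bp from an UP region of 4966 bp on the other. The region of 4966 bp held a TSS of D730003I15Rik, so its class cannot be assigned to Atf3 alone. Within 50 kb of any Atf3 TSS there were 6 UP, 0 DOWN and 1 unchanged region. Of the 12261 genes, 32 had 6 or more UP regions within 50 kb, or 0.261%. Because the Atf3 TSSs are spread out, this window is long, and measured from the reference TSS alone the count was 4 UP regions, reached by 238 genes or 1.94%. Inside the gene, away from these TSSs, lay UP regions of 1257 bp and 914 bp, and neither touched an exon. The unchanged region, 1222 bp wide, lay over exonic sequence at the 3′ end.

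Atf5 encodes a bZIP factor whose mRNA, like that of Atf4, is translated more when eIF2α is phosphorylated. Its region, chr7:44814462-44820813, was unchanged and 6352 bp wide, the widest at any of the 10 genes and at the 96.6th percentile of unchanged regions at a TSS. It held all 3 Atf5 TSSs and also TSSs of Il4i1 and Nup62. Of the other 5 regions within 50 kb, 4 were unchanged, and the 1 UP region was 286 bp wide, 38.4 kb from the nearest Atf5 TSS and inside Vrk3.

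The share of each class varied with width. Regions at TSSs in the narrowest decile, 676 bp or less, in which Nupr1 lay, were unchanged in 89.8% and UP in 8.77%. Those in the widest decile, 5163 bp or more, were UP in 25.7%, DOWN in 30.2% and unchanged in 44% of 1065 cases. This decile held 5 of the 9 regions of the set, 3 of them UP (Ddit3, Atf3 and Ppp1r15a) and both of Atf4 and Atf5 unchanged. The 6 UP regions ranged from 1804 to 6277 bp with a median of 3848 bp. Trib3, Chac1 and Sesn2 lay between 1804 and 2220 bp, near the median of 2136 bp for their class.

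**Figure D2:**
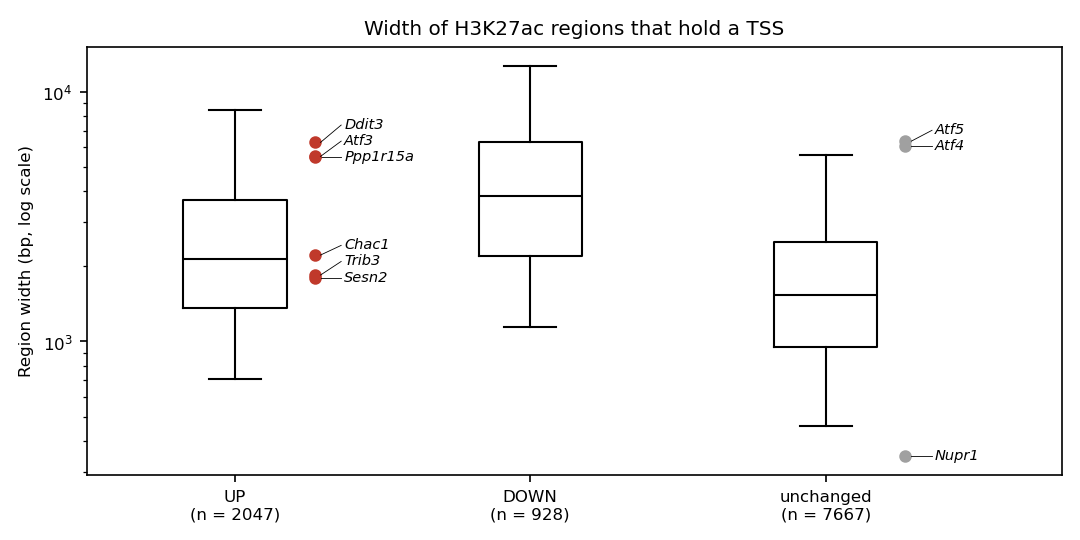
Width in bp on a log scale of the regions that hold a TSS, by class. Boxes give the median and quartiles and whiskers the 5th and 95th percentiles over all such regions, and points are the 9 regions of the named genes, of which Ddit3, Atf3 and Ppp1r15a lie above the upper quartile of UP regions and Nupr1 below the 5th percentile of unchanged ones.

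Trib3 encodes a pseudokinase that is induced by ATF4 and CHOP and damps both. Its UP region, chr2:152342849-152344694, was 1846 bp wide, held all 3 TSSs and no TSS of another gene. A second UP region of 2561 bp covered the 3′ end of the gene, with 1292 bp in exons, and a further UP region of 1376 bp lay at a TSS of the neighbour Rbck1, 11.1 kb downstream. The 4 other regions within 50 kb were unchanged, and 3 of these were upstream of the gene. The nearest DOWN region was 437 kb away.

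Chac1 encodes an enzyme that degrades glutathione. Its UP region, chr2:119350119-119352338, was 2220 bp wide and lay almost evenly about the TSS, with 1110 bp upstream and 1109 bp downstream. A second UP region of 2137 bp began 3.07 kb downstream and took in the last 87 bp of the gene. Between these and 31.1 kb downstream no region was listed, and the 3 regions beyond were unchanged and inside Ino80. Trib3 and Chac1 therefore shared a layout of an UP region at the TSS and an UP region at the 3′ end, with no other gene's TSS in either.

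Ppp1r15a encodes GADD34, which brings a phosphatase to eIF2α and so restores translation. Its UP region, chr7:45521793-45527268, was 5476 bp wide and covered all 3353 bp of the gene. It extended 1122 bp upstream but 4353 bp downstream of the reference TSS, and it held a TSS of the neighbour Plekha4 as well. There were 2 more UP regions within 50 kb, 1532 bp wide at a TSS of Nucb1 and 1423 bp wide in Hsd17b14, and 4 unchanged regions. In the farthest of these, at a TSS of Bcat2, was the only other match to the longer CARE in the regions around the set, 50.2 kb from the reference TSS of Ppp1r15a. Around the 10 genes, 2 of 20 UP regions and 1 of 38 unchanged regions held the longer CARE. Of all regions, 4.65% of the UP and 1.41% of the unchanged ones did.

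Sesn2 encodes sestrin 2, which restrains mTORC1. Its UP region, chr4:132509412-132511215, was 1804 bp wide, the narrowest of the 6, and also held a TSS of Gm12981. That gene is annotated with the biotype antisense but lies on the same strand as Sesn2. A second UP region of 2764 bp lay 2.8 kb upstream and was wider than the one at the TSS. A DOWN region of 1126 bp lay 26.6 kb downstream, beyond the end of the gene, and an unchanged region of 1614 bp lay over exonic sequence at the 3′ end. Sesn2 was thus the only gene of the set with an UP region at its TSS and a DOWN region within 50 kb.

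Nupr1 encodes a small stress-induced chromatin protein. Of its 6 annotated TSSs, 1 lay in a region, chr7:126625725-126626073, which was unchanged and only 349 bp wide, at the 2.05th percentile of its class. It ended 49 bp upstream of the reference TSS, so the reference TSS itself was in no region. No UP region lay within 50 kb, and the nearest was 121 kb away. A DOWN region of 7679 bp lay 43.9 kb from the nearest Nupr1 TSS, at a TSS of Sult1a1, a sulfotransferase gene. Nupr1 thus had the longer CARE near its reference TSS, as did Ddit3, while its mark differed in width and class. Another annotated start, at chr7:126626016, lay upstream and inside the region. Counted from that start, the match is farther downstream.

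Ddit4 encodes REDD1, another inhibitor of mTORC1. No region held its TSS. The nearest was a DOWN region of 1374 bp at 7779 bp downstream, and a second DOWN region of 1383 bp lay 17.7 kb upstream. The only UP region within 50 kb was 2914 bp wide and 41.8 kb downstream. With 1 UP, 2 DOWN and 6 unchanged regions, Ddit4 had the most regions around it of the 10 genes, and it had more DOWN than UP ones.

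**Figure D3:**
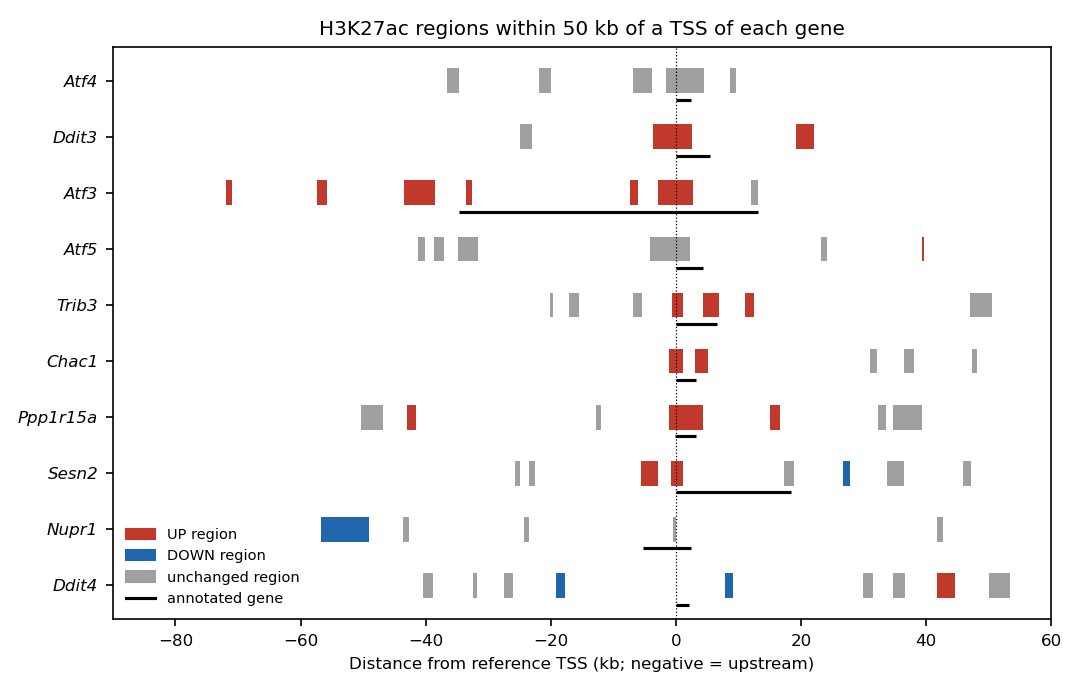
Regions within 50 kb of any TSS of each gene, by distance from the reference TSS in kb along the direction of transcription, with negative values upstream. Boxes are regions in red for UP, blue for DOWN and grey for unchanged, drawn to scale, and black lines are the genes. UP regions number 6 around Atf3, 3 around Trib3 and Ppp1r15a and 0 around Atf4 and Nupr1, and the 4 DOWN regions lie around Sesn2, Nupr1 and Ddit4.

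Over all 10 genes, 62 distinct regions lay within 50 kb of a TSS, and no region was near more than 1 of the genes. Of these, 20 were UP, 4 DOWN and 38 unchanged. Of the 53 regions that held no TSS of the set, 14 were UP and 4 DOWN, or 26.4% and 7.55%, against 17.1% and 10.5% of all 32196 regions. Atf3 accounted for 5 of the 14, and without the regions around it 9 of 47 were UP, or 19.1%, close to the share of all regions. More UP than DOWN regions were found around 7 genes, all among the 9 with a region at a TSS, where 41.5% of the 12261 genes had more UP than DOWN. This count takes in the regions at the TSSs, and without those at a gene's own TSSs it was 6 of the 9 against 33.5% of genes. Without regions at any gene's TSS it was 5, and the share of all genes was not computed for this count. A DOWN region was found around 2 of the 9, and around Ddit4, against 31.9% of genes. Each of the 6 genes with an UP region at a TSS had another UP region within 50 kb, as had 51% of the 2620 genes with an UP region at a TSS. An UP region that overlapped the gene other than at a TSS was found for Atf3, Trib3 and Chac1, 3 of the 9, against 11.5% of genes. The Chac1 region had only 87 of its 2137 bp, or 4.07%, in the gene and lay mostly past its 3′ end. A DOWN region overlapped the body of 0 of the 9, and of 15% of all genes, so that this count is close to the background.

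The shared regions limit what these counts say of single genes. Among the 6 genes in UP regions, Atf3, Trib3 and Chac1 had a region with no TSS of another gene, and Ddit3, Ppp1r15a and Sesn2 shared theirs.

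Other genes of the pathway were listed by role. Of 8 genes for eIF2, its kinases and a phosphatase subunit, 3 had a TSS in an UP region and 5 in an unchanged one, or 37.5% UP beside 21.4% of all genes. With so few genes no contrast with the background is drawn. The 3 were Eif2ak3, which encodes PERK (2554 bp), Eif2s2, the eIF2β subunit (1548 bp), and Ppp1r15b, the constitutive counterpart of Ppp1r15a (6626 bp). The other eIF2α kinases, Eif2ak1, Eif2ak2 and Eif2ak4, were in unchanged regions.

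Among 10 bZIP genes that can partner ATF4 or CHOP, 2 lay in UP regions, 2 in DOWN regions and 3 in unchanged ones, and 3 had no region at a TSS. Over the 7 with a region, 28.6% were UP and 28.6% DOWN, beside 21.4% and 8.91% of all genes. The UP regions were at Cebpb (8393 bp) and Cebpg (4379 bp), and the DOWN regions at Cebpd (4685 bp) and Nfe2l2 (10932 bp), the latter encoding the antioxidant factor NRF2. The C/EBP genes were thus spread over all classes, with Cebpa in an unchanged region (7316 bp). These UP and DOWN regions lay in the 2 widest deciles of regions at a TSS. In decile 9, from 3452 to 5162 bp, 25.8% were UP and 17.8% DOWN, and in the widest decile 25.7% and 30.2%.

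Of 26 further genes known as ATF4 or CHOP targets, 23 had a region at a TSS, and 17 of these had an UP region, 4 a DOWN region and 5 an unchanged one, with 3 genes in 2 classes. The 4 widest regions among genes listed as UP alone or as UP at their widest were at Sqstm1, an autophagy receptor (17527 bp), Eif4ebp1, a translation repressor (7796 bp), Gadd45a, a growth arrest gene (4680 bp), and Psat1, a serine synthesis enzyme (2496 bp). The 4 with a DOWN region were Gdf15, a stress hormone (8029 bp), Bbc3, which encodes the pro-apoptotic PUMA (7657 bp), Gpt2, an alanine transaminase whose widest region of 12407 bp was DOWN while another TSS lay in an UP region, and Mthfd2, a mitochondrial folate enzyme with TSSs in both UP and DOWN regions. The DOWN regions of Gdf15, Bbc3 and Gpt2 and the UP regions of Sqstm1 and Eif4ebp1 lay in the widest decile. There 30.2% of regions at a TSS were DOWN and 25.7% UP. Over the 3 lists of 44 genes, 38 had a region at a TSS, and 22 had an UP, 6 a DOWN and 13 an unchanged one. As shares of the 38 these were 57.9%, 15.8% and 34.2%, beside 21.4%, 8.91% and 73.7% of all genes. Of the 22, 17 were from the list of targets. The lists were drawn up with results of these data known.

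Among 12 paralogs, an UP region held a TSS of 3, an unchanged region of 8 and a DOWN region of 0, and Trib2 had no region at a TSS. Over the 11 with a region these were 27.3% UP and 72.7% unchanged, near the 21.4% and 73.7% of all genes. The 3 in UP regions were Chac2 (1596 bp), Ppp1r15b (6626 bp), also counted above with the eIF2 genes, and Atf6 (2811 bp). The word paralog is used loosely, since the list took in the bZIP genes Atf2, Atf6 and Atf7. Unchanged regions lay at Trib1, Sesn1, Sesn3 and Ddit4l among others. The difference between the paralogs and the 10 genes was not tested.

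**Figure D4:**
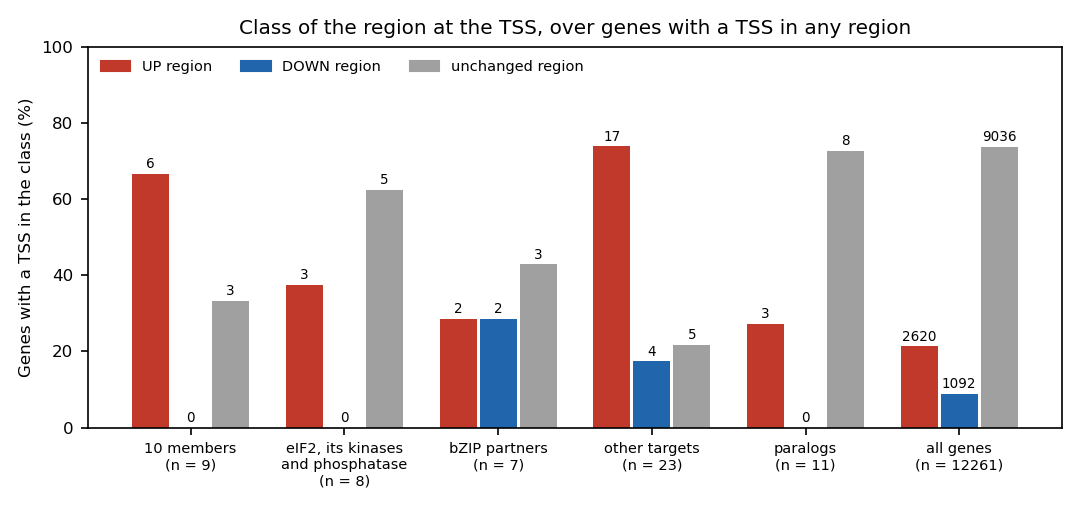
Share in percent of genes with a TSS in each class, over the genes of each list that have a TSS in any region (n under each name), with the number of genes above each bar. A gene with TSSs in 2 classes counts in both. UP is the most frequent class for the 10 genes (6 of 9) and the other targets (17 of 23), and unchanged for the paralogs (8 of 11) and all genes (9036 of 12261).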

How the data were processed

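H3K27ac ChIP-seq was available as 3 lists of regions from 8 libraries. Per the study's methods, the authors mapped reads to mm10, called broad peaks with MACS2 on all pooled libraries against input, counted reads in bins of 150 bp with csaw, normalized by loess and ran a paired quasi-likelihood test. A peak past a false discovery rate of 0.05 was deposited as UP where its rising bins numbered 2 times its falling ones or more, and as DOWN where that ratio was 0.5 or less. The deposited values are start and end positions, with no count, signal or score, and input was used only by the authors. The 10 genes and the lists were chosen with earlier results of these data known.

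Regions were joined to all TSSs of GENCODE M21 (mm10) by gene symbol. The study used GENCODE M9 and also linked distal regions by CisMapper, which was not done here. The reference TSS was that of the transcript with the best APPRIS rank, then the basic tag, then the greatest length. Distances ran from the edge of a region to the nearest TSS, except that the region at Rbck1 was measured from the reference TSS of Trib3. Distances of motif matches ran to the reference TSS. All 12261 genes whose TSS fell in some region served for comparison. Motifs were read from the reference genome of the same build with samtools 1.23.1 and Python 3.11.15, and the lookups and searches were tested on simulated data. Named were the 10 genes, genes with a TSS in the same regions, and, of each list, genes with a TSS in a DOWN region and the 4 UP genes with the widest regions. Other neighbours and unchanged list genes were named after their values were seen. Alternatives were other choices of TSS, distance, width, background and motif window. Nothing was tested, since no value per library was used.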

Additional observations from a re-analysis of the deposited data

How the results depend on the processing

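The count of genes at UP regions was 6 with the reference TSS alone, basic transcripts, regions within 1 kb or 10 kb, regions that cover 500 bp on each side, and regions of at least 1 kb. In the same order, the share of all genes at UP regions was 20.7%, 20.8%, 21%, 26.9%, 24.3% and 23.7%, against 21.4%. With only regions that hold no TSS of another gene, added after seeing the data, the count was 3 and 5 genes had none, while 19.1% of genes were UP. Genes with no region at a TSS numbered 2 with the reference TSS, basic transcripts, 500 bp on each side or regions of at least 1 kb. Within 10 kb they numbered 0, and 1 gene was at a DOWN region, as were 14.1% of all genes. Within 25 kb there were 2 DOWN and 17 unchanged regions, and 1 gene had more DOWN than UP. Within 100 kb there were 10 DOWN regions. Genes with more UP than DOWN regions numbered 6 within 25 kb and 5 within 100 kb, against 7 within 50 kb. Without regions at any TSS there were 10 UP and 21 unchanged regions, and 1 gene with more DOWN than UP. With a share of at least 0.5 of a region inside the gene, unchanged regions in gene bodies numbered 3 against 5, and UP regions 8 against 10. CARE matches were found in 5 genes against 5.05% of all from 500 bp before to 100 bp after the TSS, and in 7 against 30% from 2000 bp before to 1000 bp after. Of 115 alternative values, 72 stayed within their limit of 1.5 times or of the 95% binomial interval. No paired analysis was possible because the lists hold no value per library. For the same reason, leaving out a replicate and a stricter peak threshold could not be run, and the depth that limits each class is unknown.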
